A study of Mus musculus with 43 samples.

Results

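The change of gene expression from day to day was compared between 2 courses of reprogramming in which a different NuRD subunit had been targeted, Mbd3 in the Mbd3f/- system and Gatad2a in the Gatad2a-/- system. The comparison rests on 18 of the 43 libraries of the study, namely the starting fibroblasts (MEF) and days 1 to 8 of each system, 9 libraries per system and 1 per stage. For each gene and day, the change from MEF was taken within a system on the log2(FPKM + 1) scale, and the Gatad2a-/- change was subtracted from the Mbd3f/- change of the same day. This daily difference is positive where Mbd3f/- cells moved upward relative to Gatad2a-/- cells. It asks what the courses share, and where 1 of them is ahead, behind or on another path.

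NuRD is a chromatin remodelling complex that joins a CHD ATPase that slides nucleosomes to the histone deacetylases HDAC1 and HDAC2. Mbd3 is a scaffold that holds these parts together, and Gatad2a is a zinc finger subunit that links Mbd3 to the CHD ATPase. In reprogramming, forced Oct4, Klf4, Sox2 and Myc first silence the fibroblast programme, next bring up epithelial genes, and last switch on the endogenous pluripotency network. NuRD represses many genes of pluripotent cells, which is why its loss has been studied as a way to speed this process.

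The Mbd3f/- group and the Gatad2a-/- group were both secondary MEF with a doxycycline-inducible cassette of the 4 factors, started by adding doxycycline in serum with LIF at low oxygen. Both were moved after the third daily harvest to LIF with serum replacement and inhibitors of MEK/ERK and GSK3, although the growth protocol in the labels puts the inhibitors earlier. Cells of days 3 to 8 were plated on irradiated human foreskin fibroblasts, and MEF and days 1 and 2 were not described so. Each system is a single line with its own cassette background. The labels give a WT-2 line as isogenic to Gatad2a-/- and give no isogenic partner for Mbd3f/-, so the subunit and the line cannot be told apart. The days of a course are successive harvests of 1 line, and p-values measure the spread of the daily difference between these libraries.

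The FPKM tables of the systems were normalized separately, with depth unknown. They differ in kind: short RNA genes made up 0.929 to 3.99% of the summed FPKM in Mbd3f/- libraries and 51.8 to 85% in Gatad2a-/- libraries, and protein-coding genes summed to 382154 to 453332 and 458439 to 519355 FPKM. Between 12266 and 13861 genes reached 1 FPKM in Mbd3f/- libraries, and 15485 to 16896 in Gatad2a-/- libraries. The part of these gaps in the results was not tested beyond the alternative scalings. The fibroblast identity of both MEF libraries was seen in the fibroblast matrix list, whose median level was 8.34 log2(FPKM + 1) in Mbd3f/- MEF and 7.96 in Gatad2a-/- MEF, against 0.219 and 0.205 for 30 pluripotency genes. Both MEF libraries also held macrophage and blood markers, with medians over 10 genes of 5.59 in Mbd3f/- MEF and 4.03 in Gatad2a-/- MEF. These are bulk libraries, so fewer cells of a type and less RNA per cell cannot be told apart.

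Neither targeted gene lost its reads in its own system. Mbd3 was at 37.5 FPKM in Mbd3f/- MEF and at 55.8 to 96.5 FPKM (median 61.2) on Mbd3f/- days, against 64.5 FPKM in Gatad2a-/- MEF and 62.7 to 84.6 FPKM (median 67.8) on Gatad2a-/- days. Gatad2a was at 10.3 FPKM in Mbd3f/- MEF and at 20.4 to 33.7 FPKM (median 29.6) on Mbd3f/- days, against 10.2 FPKM in Gatad2a-/- MEF and 8.59 to 14.7 FPKM (median 10.4) on Gatad2a-/- days. The day ranges overlapped for Mbd3 and did not for Gatad2a, which was lower in Gatad2a-/- cells on every day. The labels do not say which exons were removed, so a gene-wide FPKM does not check the genotype. The mean daily difference was 0.72 ± 0.20 (SE) for Mbd3 and 1.25 ± 0.29 for Gatad2a, with adjusted p (limma) of 0.126 and 0.0856. Of 15 NuRD subunits, 0 passed the threshold in any of the 4 limma comparisons. Over days 1 to 8, 5 of them had an unadjusted p under 0.05, against 18% of all genes tested.

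By days 6 to 8 the courses shared more of their falls than of their rises. Averaged over days 6 to 8, 986 genes had fallen by at least 2 (log2) in both systems, which is 62.2% of the 1584 such falls in Mbd3f/- cells and 71.5% of the 1379 in Gatad2a-/- cells. Another 513 genes had risen by at least 2 in both, which is 52.2% of the 983 such rises in Mbd3f/- cells and 40% of the 1284 in Gatad2a-/- cells. Only 7 genes moved by 2 or more in opposite directions. These counts use the size of change alone, with no test, and cover all kinds of genes, short RNA genes included. In Gatad2a-/- libraries short RNA genes made up 62.8% of the summed FPKM in MEF and 77.1, 83 and 85% on days 6 to 8. The part of this shift in the shared and unshared counts was not tested, and no count was made for protein-coding genes alone. Across the 19860 genes tested, the changes of the 2 systems had a Pearson r of 0.606, 0.534, 0.574, 0.683, 0.734, 0.682, 0.699 and 0.722 over the 8 days in order. These are descriptions across genes, which are not replicates, and all days of a system share its MEF library.

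The number of shared changes was larger on the last days than on the first, as was the number of changed genes. Shared falls numbered 220, 277, 597, 888, 978, 1035, 941 and 966 over the 8 days in order. Shared rises numbered 151, 169, 196, 279, 473, 442, 535 and 662 on the same days. On day 1 the shared falls were 29.7% of all falls in Mbd3f/- cells and 40.4% of those in Gatad2a-/- cells, and the shared rises 18.7% and 33%. On day 3 the shared falls were 39.6% of all falls in Mbd3f/- cells and 64.9% of those in Gatad2a-/- cells. On the same day the shared rises were 19.8% of the rises in Mbd3f/- cells and 21.8% of those in Gatad2a-/- cells. By day 8 the shares were 58.7% and 70.9% for falls and 56.1% and 39.5% for rises, so as a share of the Gatad2a-/- rises the overlap was smaller on day 3 than on day 1 and reached 39.5% at the end.

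For 137 of the 1499 shared genes, 45 rises and 92 falls, the 95% interval of the difference of days 6 to 8 lay within 1 log2 unit of 0. Among the 10 largest rises of this kind, Parp1, Msh6, Ung and Chtf18 act in DNA repair or replication. Parp1, the enzyme that marks DNA breaks with poly(ADP-ribose), was at 21.8 FPKM in Mbd3f/- MEF and 70.3 to 193 FPKM (median 169) on Mbd3f/- days, against 27.2 FPKM in Gatad2a-/- MEF and 108 to 277 FPKM (median 190) on Gatad2a-/- days. Its change over days 6 to 8 was 2.94 in Mbd3f/- cells and 2.94 in Gatad2a-/- cells, with a difference of 0.00395 ± 0.28 (SE). Msh6, a mismatch repair protein, was at 11.3 FPKM in Mbd3f/- MEF and 20.1 to 121 FPKM (median 56.1) on Mbd3f/- days, against 11.5 FPKM in Gatad2a-/- MEF and 32.8 to 153 FPKM (median 60.5) on Gatad2a-/- days. Its change of days 6 to 8 was 3.07 in Mbd3f/- cells and 3.28 in Gatad2a-/- cells. Both genes were low in the 2 MEF libraries and high in the late libraries of both systems, whose ranges overlapped. Ung, which removes uracil from DNA, changed by 2.95 and 2.93, and Chtf18, a clamp loader subunit, by 3.15 and 3.00. Mreg, which acts in the transport of pigment organelles, changed by 5.52 in Mbd3f/- cells and 5.53 in Gatad2a-/- cells.

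The 10 largest falls of like size included secreted, membrane and actin-binding proteins. Igfbp7, a secreted insulin-like growth factor binding protein, was at 426 FPKM in Mbd3f/- MEF and 1.51 to 81.9 FPKM (median 3.02) on Mbd3f/- days, against 723 FPKM in Gatad2a-/- MEF and 2.5 to 177 FPKM (median 5.76) on Gatad2a-/- days. Its change over days 6 to 8 was -6.92 in Mbd3f/- cells and -7.24 in Gatad2a-/- cells. Csf1, the growth factor of macrophages, changed by -5.35 and -5.30, and Synpo, an actin-binding protein, by -4.88 and -4.86. Anxa5, a phospholipid-binding protein, changed by -4.81 in both systems, and Rspo3, an amplifier of WNT signalling, by -4.05 and -4.02. Of the shared genes, 13 of 986 falls and 0 of 513 rises differed between the systems by the test of days 6 to 8, against 0.66% of all genes tested. At that share few of the rises would be called, so the 0 does not set them apart.

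**Figure D1:**
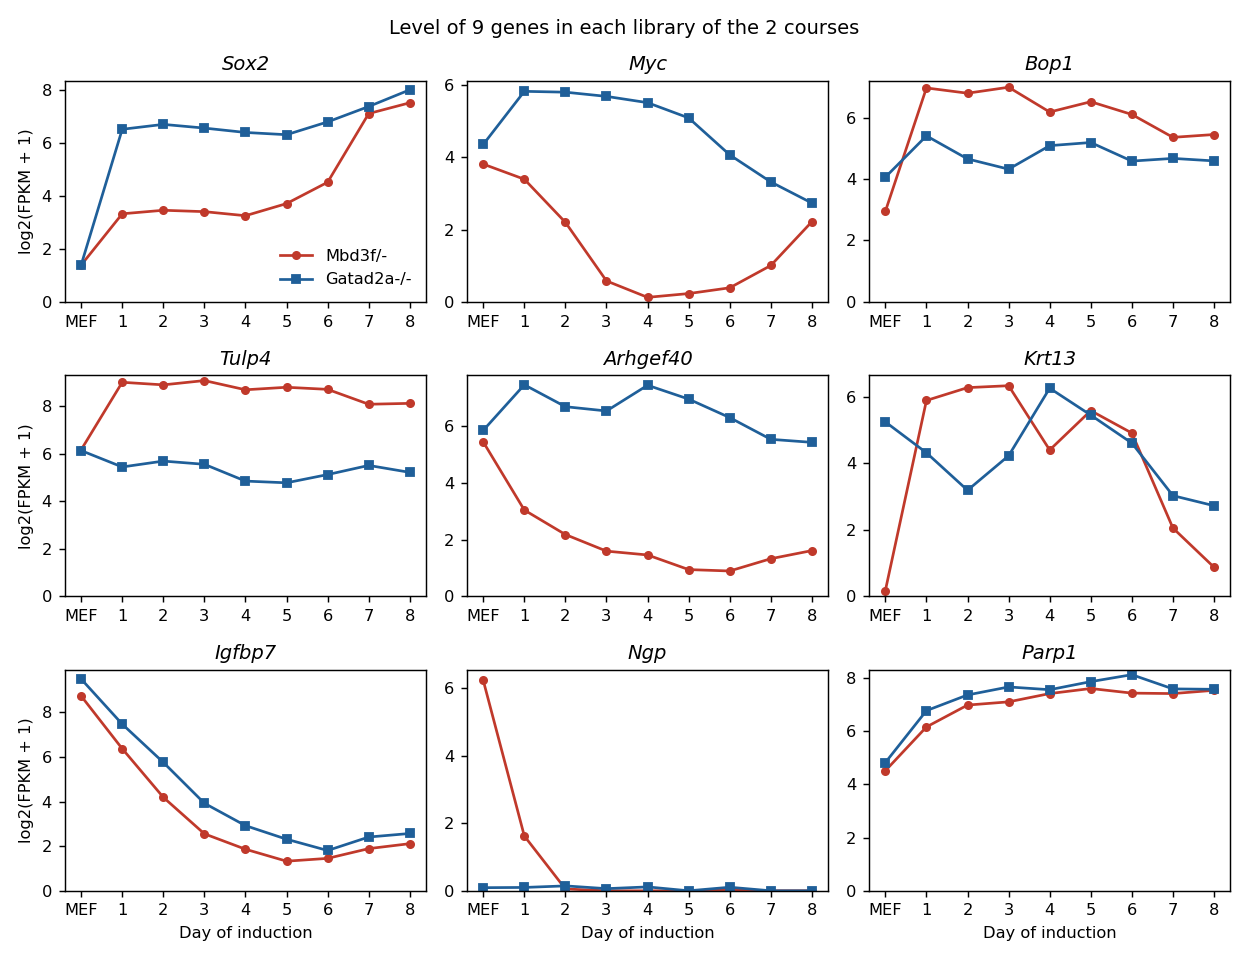
Level of 9 genes as log2(FPKM + 1) in each library, MEF and days 1 to 8, with Mbd3f/- as red circles and Gatad2a-/- as blue squares and 1 library per point. Igfbp7 and Parp1 run close together, Tulp4 and Arhgef40 part on day 1 and stay apart, Sox2 and Bop1 part early and draw nearer, Krt13 and Ngp differ most in MEF, and Myc is lower in Mbd3f/- cells on every day.

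Falling genes passed the middle of their fall sooner in Mbd3f/- cells. The midpoint of a gene's course was taken as the first time, by linear interpolation, at which it had covered 50% of its own mean change of days 6 to 8. For 972 genes that fell by at least 2 in both systems and reached 5 FPKM in a library, the median midpoint was 1.14 days in Mbd3f/- cells (interquartile range 0.737 to 2) and 2.04 days in Gatad2a-/- cells (0.821 to 3). The median lag per gene was 0.201 days, which is smaller than the gap between the medians since many genes fell fast in both. The midpoint came later in Gatad2a-/- cells for 689 genes (70.9%), by at least 1 day for 242 (24.9%), and at least 1 day later in Mbd3f/- cells for 39 (4.01%). Day 2 showed this most: the median falling gene had covered 69.8% of its fall in Mbd3f/- cells and 46.3% in Gatad2a-/- cells. Of 25 fibroblast matrix genes with a midpoint, 15 passed it later in Gatad2a-/- cells, at medians of 1.25 days in Mbd3f/- cells and 1.64 days in Gatad2a-/- cells. Their median lag per gene was 0.101 days. On day 4 the share of falling genes past their midpoint was 95.1% in both systems.

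Rising genes did not share this lead. For 513 genes that rose by at least 2 in both systems, the median midpoint was 3.65 days in Mbd3f/- cells (interquartile range 0.959 to 4.74) and 3.15 days in Gatad2a-/- cells (0.919 to 4.53), with a median lag of -0.133 days. The midpoint came later in Gatad2a-/- cells for 207 of them (40.4%). On day 4 the median rising gene had covered 47.1% of its rise in Mbd3f/- cells and 61.5% in Gatad2a-/- cells. The lag of rises was small against its range over genes and depended on the processing. After quantile normalization the median midpoint of rising genes was 3.22 days in both systems (lag -0.0321), and with each system's iPSC library as the end the lag was -0.0295. Restricting the sets to genes alike in MEF gave lags of 0.191 days over 683 falling genes and -0.134 days over 420 rising genes. No test was made of these lags, since genes of a library are not replicates.

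**Figure D2:**
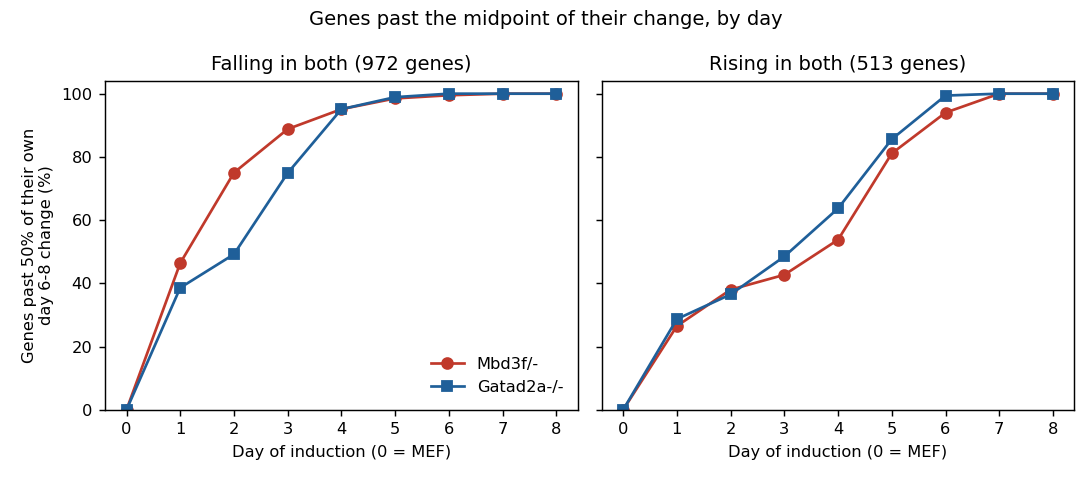
Percent of genes past 50% of their own day 6 to 8 change, by day with MEF as day 0, for 972 genes falling in both systems (left) and 513 rising in both (right), Mbd3f/- in red circles and Gatad2a-/- in blue squares. On day 2, 75% of falling genes were past their midpoint in Mbd3f/- cells and 49.2% in Gatad2a-/- cells, while on day 4 53.8% and 63.7% of rising genes were.

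Single genes lagged by days, and those named here were chosen for the size of the lag after their values were seen. Crabp1, a carrier of retinoic acid, passed its midpoint at 1.5 days in Mbd3f/- cells and 5.27 days in Gatad2a-/- cells. Foxc1, a transcription factor of mesenchyme, did so at 0.986 and 4.2 days and Cxcl14, a chemokine, at 1.76 and 5.22 days. The opposite order was found for Cav1, the coat protein of caveolae, with midpoints of 3.66 days in Mbd3f/- cells and 0.714 days in Gatad2a-/- cells, and for Aldh1a2, which makes retinoic acid, with 3.52 and 1.06 days. The imprinted genes Ndn and Mest also fell later in Mbd3f/- cells, at 3.33 and 3.64 days against 1.55 and 1.86 days in Gatad2a-/- cells, while of 11 imprinted genes with a midpoint 5 passed it later in Mbd3f/- cells and 6 later in Gatad2a-/- cells. Among rises, Fgf4, the growth factor of early embryo cells that Oct4 and Sox2 switch on, reached its midpoint at 4.26 days in Mbd3f/- cells and 0.982 days in Gatad2a-/- cells.

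Matched by likeness of the whole profile, later Mbd3f/- days lay nearest to later Gatad2a-/- days, with an offset that depended on the measure. By the root mean square difference of the change over all tested genes, Mbd3f/- days 1 to 8 lay nearest to Gatad2a-/- days 1, 1, 4, 4, 5, 5, 8 and 8. The mean offset was 0 days, and the distances of the nearest pairs ran between 0.922 and 1.16 log2 units. Days 2, 3, 6 and 7 of Gatad2a-/- cells were the nearest day of no Mbd3f/- library. By Pearson correlation the nearest days were 1, 4, 4, 4, 5, 5, 8 and 8 (mean offset 0.375 days), and for quantile-normalized changes they were 1, 1, 1, 4, 5, 5, 8 and 8 (-0.375 days). On matched levels after quantile normalization in place of changes, the nearest days were 1, 1, 1, 1, 5, 5, 5 and 8, a mean offset of -1.12 days.

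**Figure D3:**
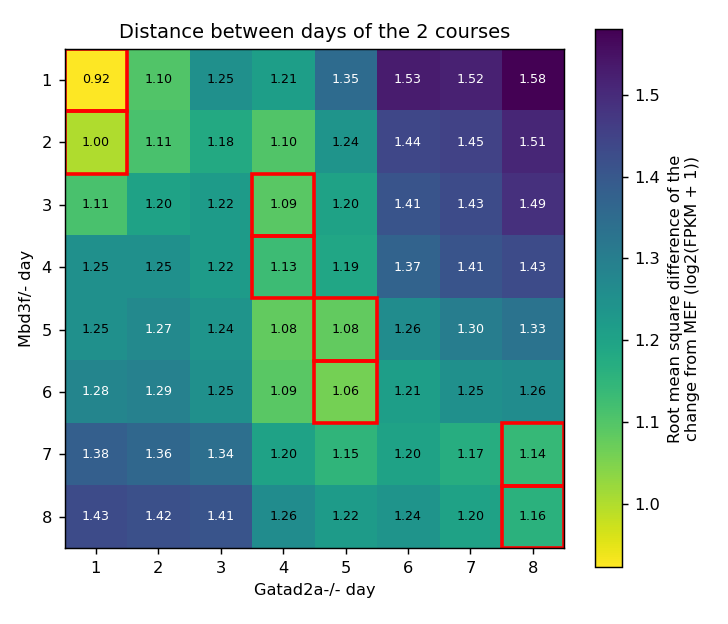
Root mean square difference of the change from MEF over the 19860 genes tested, in log2(FPKM + 1), for each Mbd3f/- day (rows) against each Gatad2a-/- day (columns), where yellow is close, purple is far and red boxes mark the nearest Gatad2a-/- day of each Mbd3f/- day. The boxes follow the diagonal in steps, at Gatad2a-/- days 1, 4, 5 and 8.

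The test of the daily difference, limma with the days paired, passed few genes against an adjusted p of 0.05. Of 19860 genes, 170 differed over days 1 to 8 (0.856%), 46 upward in Mbd3f/- cells (0.232%) and 124 downward (0.624%). With each library centred on its median this split turned to 91 upward and 67 downward. Over days 1 to 3, 186 differed (0.937%), 91 upward (0.458%) and 95 downward (0.478%), and over days 6 to 8, 131 did (0.66%), 26 upward (0.131%) and 105 downward (0.529%), where median centring gave 268 and 64 over days 1 to 3 and 33 and 78 over days 6 to 8. At an unadjusted p under 0.05 the numbers were 3569 (18%), 4143 (20.9%) and 3356 (16.9%). The median SE of a daily difference over days 1 to 8 was 0.386, and every one of them carries the error of 1 MEF pair. Protein-coding genes made up 139 of the 170, short RNA genes 12 and other non-coding genes and pseudogenes 16. Among the 19860 genes tested these kinds numbered 13834, 1984 and 3638. These counts depended on single days: with 1 day left out, days 1 to 8 gave 32 genes without day 7 and 398 without day 1, and each of the 8 omissions moved the count by over 1.5 times.

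Most of the genes called over days 1 to 8 differed more between the MEF libraries than on the days after. A gene was counted to the side, MEF or days, where the level gap between the systems was more than 2 times as large as on the other. For 106 of the 170 the gap was larger in MEF (24 upward and 82 downward), for 39 it was larger on the days (9 upward and 30 downward), and 25 had both. Over days 1 to 3 the numbers were 83, 53 and 50, and over days 6 to 8 they were 63, 51 and 17. The level gap is set between tables that were normalized separately.

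**Figure D4:**
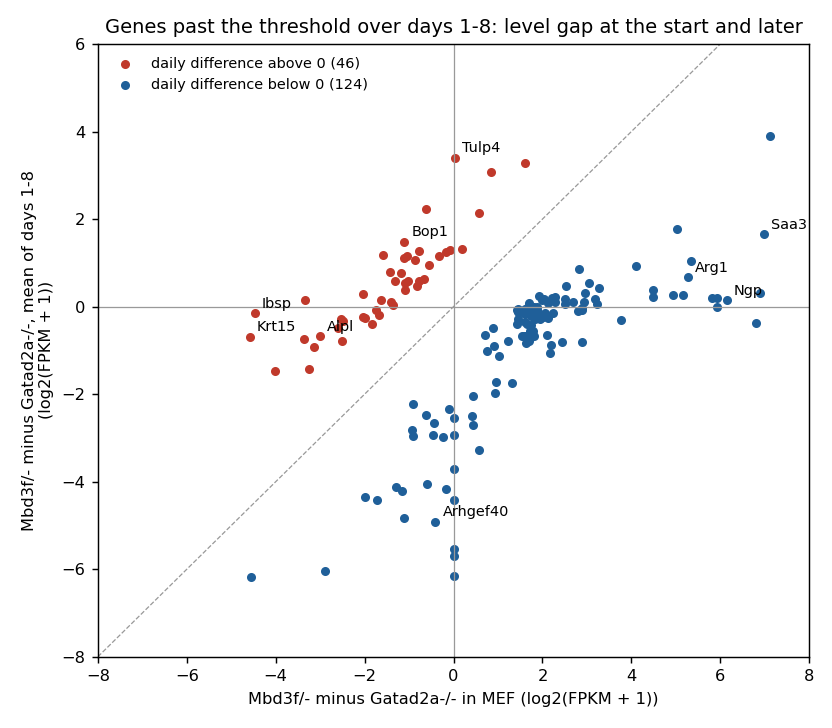
Level gap, Mbd3f/- minus Gatad2a-/- in log2(FPKM + 1), in MEF (horizontal) and as the mean of days 1 to 8 (vertical) for the 170 genes past the threshold, with 46 in red whose daily difference is above 0 and 124 in blue below 0. Points near the horizontal line, such as Ngp, Arg1 and Ibsp, differ mainly in MEF, and points near the vertical line, such as Tulp4 and Arhgef40, differ mainly on the days.

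Several genes with the most negative differences were far apart in the MEF libraries. Ngp, a neutrophil granule protein, was at 74.2 FPKM in Mbd3f/- MEF and 0 to 2.08 FPKM on Mbd3f/- days, against 0.0659 FPKM in Gatad2a-/- MEF and 0 to 0.106 FPKM on Gatad2a-/- days. Its mean daily difference was -5.99 ± 0.55 (SE, adjusted p = 0.00836). Camp, the antimicrobial peptide of the same granules, was at 64.3 FPKM in Mbd3f/- MEF and 0.0776 FPKM in Gatad2a-/- MEF, with a difference of -5.92 ± 0.55 (adjusted p = 0.00877). The protease inhibitors Stfa2 and Stfa2l1 (-5.62 and -5.73), the acute phase protein Saa3 (-5.32 ± 0.60), the C-type lectin Clec4n (-4.92) and Arg1, an arginase of activated macrophages (-4.59 ± 0.77, adjusted p = 0.0463), were called the same way. Stfa2, Stfa2l1, Saa3 and Clec4n have close relatives whose reads the counting may have split. All of these were high in Mbd3f/- MEF and fell within days to levels that overlapped those of Gatad2a-/- cells. Where both systems were near 0 on the days, the daily difference hardly varied: for Stfa2l1 it was -5.92 on each of days 2 to 8. A small SE of such genes does not measure the spread of MEF libraries, of which there was 1 per system. For Saa3 the levels met from both sides, with a change over days 6 to 8 of -4.11 in Mbd3f/- cells and 3.86 in Gatad2a-/- cells. Its level gap was still 4.12 over days 1 to 3.

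In the list of macrophage and blood markers, 0 of the 10 that passed the filter on low values (14 listed) were called in any limma comparison. Over days 1 to 3, 7 of them had an unadjusted p under 0.05, all downward, against 20.9% of all genes in either direction. The median difference over these days was -2.24, and -0.112 for all genes. Its median level gap was 1.62 in MEF, -0.116 over days 1 to 3 and -0.147 over days 6 to 8. Lyz2, the lysozyme of macrophages, was at 719 FPKM in Mbd3f/- MEF and at 393, 83.3 and 35.3 FPKM on Mbd3f/- days 1 to 3, against 105 FPKM in Gatad2a-/- MEF and 183, 165 and 9.87 FPKM on Gatad2a-/- days 1 to 3. Midpoints could be set for 7 of the markers and came later in Gatad2a-/- cells for 6, at medians of 1.72 days in Mbd3f/- cells and 2.58 days in Gatad2a-/- cells. The MEF libraries of the study spread widely here, with medians of 0.471 in WT-1 and 7.88 in WT-2. With each system's own iPSC library in place of MEF, the list's median difference over days 1 to 3 was 0.138.

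Ibsp and Krt15 were among the genes called upward with a gap in MEF. Ibsp, the bone sialoprotein of mineralising matrix, was at 6.01 FPKM in Mbd3f/- MEF and 154 FPKM in Gatad2a-/- MEF, and was under 0.5 FPKM on every day in both systems. Its mean daily difference was 4.31 ± 0.27 (adjusted p = 0.00242), so the larger fall was in Gatad2a-/- cells. The daily values ran only from 3.99 to 4.47, since both systems were near 0 on the days. This SE measures the small spread of those days, while the difference rests on 1 MEF library per system. Krt15, a keratin of basal skin cells, was at 0.0143 FPKM in Mbd3f/- MEF and 0.017 to 0.362 FPKM (median 0.121) on Mbd3f/- days, against 23.3 FPKM in Gatad2a-/- MEF and 0.0689 to 2.46 FPKM (median 0.988) on Gatad2a-/- days. The ranges of the days overlapped and the MEF values stood far apart, and the difference was 3.90 ± 0.46 (adjusted p = 0.0218). Sprr3, a protein of the cornified envelope with close relatives in its gene cluster (3.51 ± 0.32), and Cdsn, an adhesion protein of the outer skin (2.33 ± 0.33), were called the same way. For Sprr3 the daily difference was 3.35 on each of days 4 to 8, so the limit given for Ibsp holds there too.

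For other genes the gap was larger on the days than in MEF. Tulp4, a tubby-like protein at chr17:6106437-6251128 (plus strand, 14 exons, GRCm38), was at 70.4 FPKM in Mbd3f/- MEF and 268 to 535 FPKM (median 427) on Mbd3f/- days, against 68.8 FPKM in Gatad2a-/- MEF and 26.3 to 50.4 FPKM (median 39.2) on Gatad2a-/- days. Every Mbd3f/- day was above its MEF, every Gatad2a-/- day was below its own, and the ranges were far apart. The mean daily difference was 3.37 ± 0.34 (adjusted p = 0.0135), and the iPSC libraries were at 314 FPKM in Mbd3f/- and 11 FPKM in Gatad2a-/-. With iPSC in place of MEF the difference was -1.32, since the iPSC libraries lie further apart than the days.

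Arhgef40, a guanine nucleotide exchange factor at chr14:51984719-52006251 (plus strand, 24 exons), went the other way. It was at 42.5 FPKM in Mbd3f/- MEF and 0.859 to 7.24 FPKM (median 1.88) on Mbd3f/- days, against 56.8 FPKM in Gatad2a-/- MEF and 42.1 to 175 FPKM (median 96.9) on Gatad2a-/- days. Its level fell below MEF on each Mbd3f/- day and the day ranges of the systems did not overlap. The difference was -4.5 ± 0.51 (adjusted p = 0.0203), and the iPSC libraries were at 3.56 FPKM in Mbd3f/- and 109 FPKM in Gatad2a-/-. Cmah, the enzyme that makes N-glycolylneuraminic acid, was lower in Mbd3f/- cells from MEF on: it was at 0.0702 FPKM in Mbd3f/- MEF and 0.00545 to 0.108 FPKM on Mbd3f/- days, against 1.33 FPKM in Gatad2a-/- MEF and 5 to 102 FPKM (median 36.8) on Gatad2a-/- days. It was near 0 in all Mbd3f/- libraries and climbed from day to day in Gatad2a-/- cells, with a difference over days 6 to 8 of -5.15 ± 0.60 (adjusted p = 0.0164). H2-T23, a non-classical MHC class I gene whose relatives share sequence, was at 0.341 to 8.61 FPKM (median 0.66) on Mbd3f/- days and 8.25 to 39.4 FPKM (median 21.6) on Gatad2a-/- days, from MEF levels of 12 and 7.71 FPKM. Its difference over days 1 to 3 was -3.41 ± 0.60 (adjusted p = 0.0498).

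Of the 4 induced factors, 0 passed the limma test in any comparison. Over days 1 to 3, 2 had an unadjusted p under 0.05, against 20.9% of all genes. Sox2 was at 1.62 FPKM in Mbd3f/- MEF and 8.54 to 182 FPKM (median 11.1) on Mbd3f/- days, against 1.63 FPKM in Gatad2a-/- MEF and 78.4 to 256 FPKM (median 98.2) on Gatad2a-/- days. Mbd3f/- days 1 to 6 lay at 8.54 to 21.9 FPKM, below every Gatad2a-/- day, and its difference over days 1 to 3 was -3.19 ± 0.70 (adjusted p = 0.0714). Myc was at 13 FPKM in Mbd3f/- MEF and 0.0919 to 9.48 FPKM (median 0.754) on Mbd3f/- days, against 19.4 FPKM in Gatad2a-/- MEF and 5.64 to 55.4 FPKM (median 38.7) on Gatad2a-/- days. The Myc difference over days 1 to 3 was -3.17 ± 1.32 (adjusted p = 0.233), with the daily values of Mbd3f/- below those of Gatad2a-/- on each day. Klf4 had -2.20 ± 1.15 and Pou5f1 -0.70 ± 1.24 (adjusted p = 0.331 and 0.808). These FPKM may include reads of the cassette, which the gene tables do not separate from the endogenous gene. Sox3, a close relative of Sox2, was called: it was at 0 to 0.115 FPKM on Mbd3f/- days and 0.846 to 16.9 FPKM (median 12.7) on Gatad2a-/- days, with a difference over days 1 to 3 of -3.80 ± 0.47 (adjusted p = 0.0384). Its coding region resembles that of Sox2, so reads may have been shared.

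Genes of ribosome assembly were the list with most calls over days 1 to 3, all upward. Of 45 genes of ribosome biogenesis and other Myc-responsive genes, 10 rose more in Mbd3f/- cells over days 1 to 3 and 0 less, against 0.458% of all genes upward. Over days 1 to 8 it was 4 and 0, against 0.232% of all genes upward, and over days 6 to 8 0 and 0. At an unadjusted p under 0.05, 33 were upward over days 6 to 8, against 16.9% of all genes in either direction. The median change over days 1 to 3 was 3.09 in Mbd3f/- cells and 1.34 in Gatad2a-/- cells, and the median difference was 1.63 over days 1 to 3 and 1.15 over days 6 to 8, against -0.112 and -0.0071 for all genes. Bop1, which processes the RNA of the large ribosomal subunit, was at 6.72 FPKM in Mbd3f/- MEF and 40 to 126 FPKM (median 81.1) on Mbd3f/- days, against 15.7 FPKM in Gatad2a-/- MEF and 19 to 41.4 FPKM (median 24.4) on Gatad2a-/- days. It was lower in Mbd3f/- than in Gatad2a-/- MEF and higher on each matching day, while the ranges of the days just touched, with a difference over days 1 to 3 of 3.24 ± 0.46 (adjusted p = 0.0437). Bysl, needed for the small subunit, had 2.99 ± 0.46, and Rrp9, a protein of the U3 particle that cuts ribosomal RNA, had 2.75 ± 0.35. Ddx21, a nucleolar helicase (2.81 ± 0.44), Nhp2 and Dkc1, of the particle that makes pseudouridine (2.39 ± 0.38 and 1.88 ± 0.33), Ebna1bp2, Mrto4 and Mybbp1a were also called, as was Nme1, a nucleoside diphosphate kinase (2.58 ± 0.43). The adjusted p of these 10 ran between 0.0417 and 0.0496, just inside the threshold.

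This list differed at the start as well. The median level gap was -1.18 in MEF, where 41 of the 45 genes were lower in Mbd3f/-, 0.522 over days 1 to 3 and 0.0816 over days 6 to 8. Its median MEF level was 3.78 in Mbd3f/- and 5.25 in Gatad2a-/-, with 4.8 in WT-1 and 3.96 in WT-2. With iPSC in place of MEF, 0 members were called and the median difference over days 1 to 3 was 0.737. Of 37 ribosomal protein genes 1 was called over days 1 to 3, Rpl27 with 1.5. The Myc motif CACGTG, which reads the same on both strands, was searched in the 250 bases before the start of each gene (RefSeq, GRCm38.p6). It was present in 5 of 39 list genes with a window (12.8%), in 1 of 9 of the genes called (11.1%) and in 1042 of 10761 genes tested (9.68%). The single window among the called genes is shown for Nme1, 1 of its 2 windows, at chr11:93968026-93968275 on the minus strand, with the motif in capitals 29 bases before the start.
Nme1: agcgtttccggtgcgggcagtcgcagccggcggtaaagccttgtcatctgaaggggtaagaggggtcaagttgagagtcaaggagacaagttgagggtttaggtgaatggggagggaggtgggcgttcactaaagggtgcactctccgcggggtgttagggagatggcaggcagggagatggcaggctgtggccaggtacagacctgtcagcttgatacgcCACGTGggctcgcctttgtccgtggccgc

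**Figure D5:**
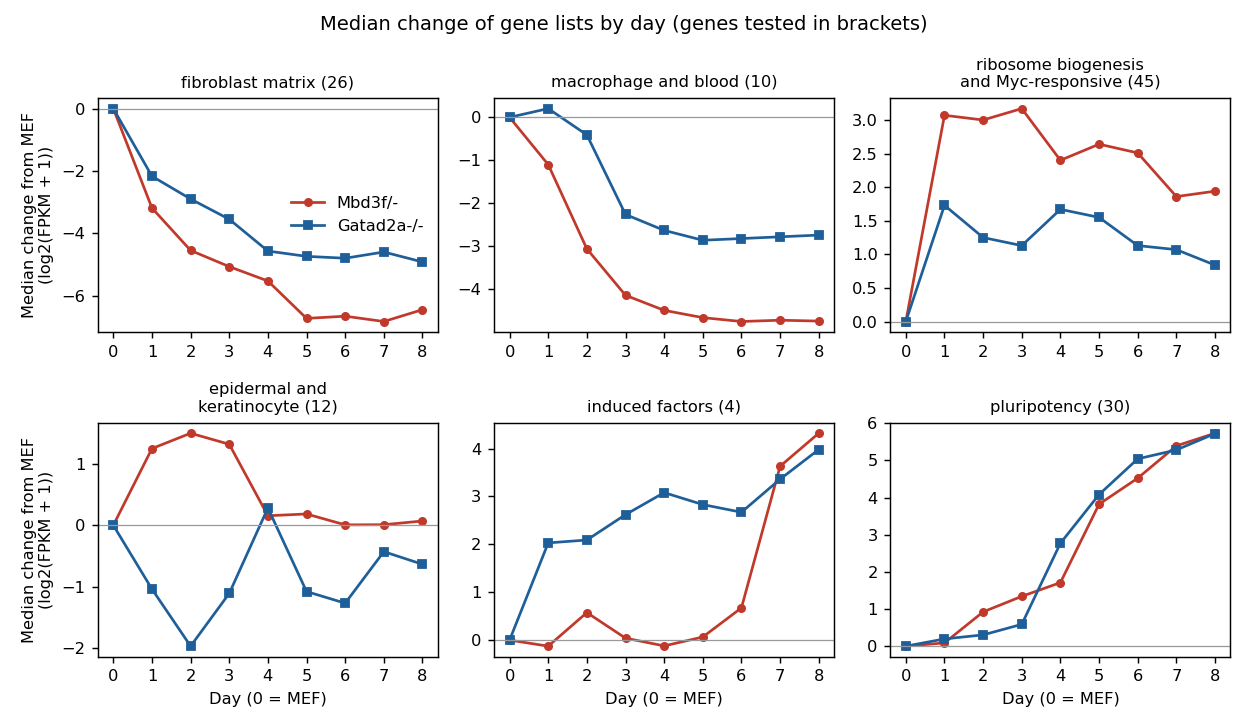
Median change from MEF in log2(FPKM + 1) of 6 gene lists by day, with MEF as day 0 and the number of genes tested in brackets, Mbd3f/- in red circles and Gatad2a-/- in blue squares. Pluripotency genes end at 5.73 in Mbd3f/- and 5.72 in Gatad2a-/- on day 8, while the ribosome list on day 3 stood at 3.17 and 1.13 and the epidermal list on day 2 at 1.5 and -1.97.

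Genes of the extracellular matrix had low late levels in both systems. Of 26 fibroblast matrix genes, 2 fell further in Mbd3f/- cells and 0 less over days 1 to 3, and 2 and 0 over days 6 to 8, against 0.478% and 0.529% of all genes downward, with median differences of -1.35 and -1.34. Under the alternatives these medians kept their sign but their size varied, from -1.54 to -0.127 over days 1 to 3 and from -1.53 to -0.457 over days 6 to 8. The median change of days 6 to 8 was -6.51 in Mbd3f/- cells and -4.76 in Gatad2a-/- cells. Lum, a collagen-binding proteoglycan, was at 83.3 FPKM in Mbd3f/- MEF and 0.931 to 16.8 FPKM (median 1.62) on Mbd3f/- days, against 24.9 FPKM in Gatad2a-/- MEF and 2.13 to 30.5 FPKM (median 4.21) on Gatad2a-/- days. It started higher and ended lower in Mbd3f/- cells, with overlap of the day ranges, and its difference over days 6 to 8 was -2.78 ± 0.31 (adjusted p = 0.0143). Col3a1, a fibrillar collagen, had -3.47 ± 0.46 over days 6 to 8 (adjusted p = 0.0245), and Pdgfra, the receptor of stromal cells, had -2.17 ± 0.36 over days 1 to 3 (adjusted p = 0.0488). Mylk, the kinase of smooth muscle myosin, had -2.23 over days 1 to 3 and -1.93 over days 6 to 8. Human feeder cells were present from day 3 in both systems, and their part in these values was not tested.

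Pluripotency genes passed the test nowhere. Of the 30 listed, 0 were called in any of the 4 limma comparisons. Over days 6 to 8, 3 of the 30 had an unadjusted p under 0.05, against 16.9% of all genes. The median change of days 6 to 8 was 5.15 in Mbd3f/- cells and 5.29 in Gatad2a-/- cells. The median difference was 0.00738 over days 1 to 3 and -0.203 over days 6 to 8, and the late value was 0.0484 after median centring. Nanog, a core factor of the pluripotent state, was at 0.421 FPKM in Mbd3f/- MEF and 0.281 to 314 FPKM (median 72.7) on Mbd3f/- days, against 2.26 FPKM in Gatad2a-/- MEF and 8.51 to 265 FPKM (median 132) on Gatad2a-/- days. Esrrb, a nuclear receptor of the naive state, was at 159 FPKM on day 8 in Mbd3f/- cells and 109 FPKM in Gatad2a-/- cells, from 0.087 and 0.0566 FPKM in MEF. Both genes rose through the days in both systems, with overlapping ranges. The difference over days 6 to 8 was 1.31 ± 1.3 for Nanog and 0.11 ± 0.61 for Esrrb, so a difference of 1 log2 unit could not be told from 0 for either. Among 26 with a midpoint, 18 passed it earlier in Gatad2a-/- cells and 8 later, at medians of 4.26 days in Mbd3f/- cells and 3.75 days in Gatad2a-/- cells. The median lag per gene was smaller than this gap, at -0.191 days. Over the 513 rising genes the lag was -0.133 days, and 40.4% passed the midpoint later in Gatad2a-/- cells. Of 14 DNA methylation genes limma called 1, downward and over days 1 to 3 only, where 0.478% of all genes were called downward. At an unadjusted p under 0.05, 3 of the 14 were downward over these days, against 20.9% of all genes in either direction. The gene called was Tet2, a dioxygenase that oxidises methylated cytosine. It was at 1.87, 5.97 and 8.01 FPKM on Mbd3f/- days 1 to 3 and at 13.9, 24.8 and 38.5 FPKM on Gatad2a-/- days 1 to 3, from 4.35 and 4.30 FPKM in MEF. Its difference over days 1 to 3 was -2.14 ± 0.32 (adjusted p = 0.0451), and over days 6 to 8 -1.14 ± 0.32 (adjusted p = 0.136).

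Differences that opened or closed were tested as days 1 to 3 minus days 6 to 8, in which the MEF libraries cancel. Here 406 genes passed (2.04%), 220 with the more positive difference early (1.11%) and 186 with the more positive difference late (0.937%), which became 293 and 132 under median centring, with 4318 at an unadjusted p under 0.05. The size of the daily difference itself, which is taken from MEF, was smaller on late than on early days for 134 of them and larger for 272. This split does rest on the MEF libraries and is not one of level gaps. Leaving out 1 day gave 47 genes without day 2, 48 without day 7, 121 without day 8, 123 without day 3, 205 without day 1 and 295 to 506 without the others. Protein-coding genes were 250 of the 406 and short RNA genes 59, against 13834 and 1984 of the 19860 genes tested.

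Keratins of skin were among the genes called with the more positive difference early. Krt14, the partner keratin of basal skin cells, was at 42, 49.9 and 23.7 FPKM on Mbd3f/- days 1 to 3 and 2.16, 0.363 and 0.733 FPKM on Mbd3f/- days 6 to 8, against 3.99, 0.944 and 3.87 FPKM on Gatad2a-/- days 1 to 3 and 2.93, 3.18 and 3.33 FPKM on Gatad2a-/- days 6 to 8. The systems did not overlap in either period and changed order between them, and the contrast was 4.47 ± 0.64 (adjusted p = 0.0267). Krt13, a keratin of mucosal surfaces, was at 58.6, 76.9 and 80.1 FPKM on Mbd3f/- days 1 to 3 and at 19, 8.15 and 17.8 FPKM on Gatad2a-/- days 1 to 3, from 0.129 and 37.1 FPKM in MEF. Its difference over days 1 to 3 was 7.34 ± 1.04 (adjusted p = 0.0468), which holds both a high early level in Mbd3f/- cells and a high MEF level in Gatad2a-/-. The early against late contrast of Krt13, 3.1 ± 0.73, did not pass (limma adjusted p = 0.0842). Of 12 epidermal genes that passed the filter (18 listed), 3 were called with the more positive difference early and 0 with the more positive difference late, namely Krt14, Krt6a (3.65) and Krt16 (3.27), where 1.11% and 0.937% of all genes were. Krt6a shares sequence with Krt6b. Aqp5, a water channel of glands and airways, was at 195, 51.7 and 6.85 FPKM on Mbd3f/- days 1 to 3 and at 2.5, 0.672 and 0.103 FPKM on Gatad2a-/- days 1 to 3, and under 0.3 FPKM in all libraries of days 6 to 8 (contrast 4.45 ± 0.71, adjusted p = 0.0332). Hbb-y, an embryonic globin, was at 28.4, 54.2 and 60.4 FPKM on Mbd3f/- days 1 to 3 and at 2.56, 2.61 and 1.77 FPKM on Gatad2a-/- days 1 to 3 (contrast 3.37).

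Of 22 epithelial genes 2 were called in this contrast, both with the more positive difference early, against 1.11% of all genes. Over days 1 to 3 and over days 6 to 8 limma called 0 of the 22. At an unadjusted p under 0.05 there were 3 upward in the early span and 4 downward in the late one. Of all genes, 20.9% and 16.9% were under it in either direction. The list's median difference was 0.699 over days 1 to 3 and -0.449 over days 6 to 8. Esrp1, a splicing regulator of epithelia, was at 3.88, 5.92 and 4.33 FPKM on Mbd3f/- days 6 to 8 and at 27.4, 36.1 and 26.7 FPKM on Gatad2a-/- days 6 to 8, with a contrast of 2.82 ± 0.39 (adjusted p = 0.0227). Dsp, a desmosome protein, had 2.08 (adjusted p = 0.0494). Cdh1, the epithelial cadherin, was at 36.4, 61.8 and 62.8 FPKM on Mbd3f/- days 6 to 8 and at 98.5, 143 and 114 FPKM on Gatad2a-/- days 6 to 8, and its contrast of 1.81 ± 0.40 did not pass (adjusted p = 0.0623).

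Other differences opened late through Gatad2a-/- cells. Ccrn4l, the clock-controlled deadenylase-like protein nocturnin, was at 14.2, 14.6 and 9.82 FPKM on Mbd3f/- days 6 to 8 and at 158, 225 and 148 FPKM on Gatad2a-/- days 6 to 8, after 10.3, 10.4 and 11.6 FPKM and 6.74, 11.2 and 17.9 FPKM on days 1 to 3. The systems overlapped early and stood apart late, with a contrast of 3.63 ± 0.33 (adjusted p = 0.00516). Tcte2 was at 0.0833, 1 and 1.26 FPKM on Mbd3f/- days 6 to 8 and at 19.8, 62.2 and 56.4 FPKM on Gatad2a-/- days 6 to 8 (3.63 ± 0.28, adjusted p = 0.00252). Slco1a6, an organic anion transporter, was at 0.16 to 0.261 FPKM on those Mbd3f/- days and 22.6 to 42.4 FPKM on those Gatad2a-/- days (3.61). For Saa3, whose contrast was 5.10, the level gap closed instead. It was 4.12 over days 1 to 3 and -0.98 over days 6 to 8, with 10.4, 22.5 and 23.7 FPKM on Mbd3f/- days 6 to 8 and 22.6, 62.3 and 33.2 FPKM on Gatad2a-/- days 6 to 8.

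The reverse, a higher late level in Mbd3f/- cells, was led by Crxos1, a homeobox gene. It was at 10.8, 27.1 and 49.4 FPKM on Mbd3f/- days 6 to 8 and at 0.935, 1.51 and 1.52 FPKM on Gatad2a-/- days 6 to 8, from at most 0.217 FPKM in either system on days 1 to 3 (contrast -3.53 ± 0.55, adjusted p = 0.03). Myof, a membrane repair protein, was at 16.3, 18 and 16.6 FPKM on Mbd3f/- days 6 to 8 and at 1.46, 2.16 and 2.11 FPKM on Gatad2a-/- days 6 to 8 (-2.78 ± 0.48, adjusted p = 0.0363). These genes were alike in the systems early and apart late. Meg3, a maternally expressed non-coding RNA, was at 95.9, 169 and 85.8 FPKM on Mbd3f/- days 6 to 8 and at 1.15, 1.14 and 2.49 FPKM on Gatad2a-/- days 6 to 8, from 1220 FPKM in Mbd3f/- MEF and 21.5 FPKM in Gatad2a-/- MEF. It was higher in Mbd3f/- cells at each stage, and the contrast of -3.06 ± 0.50 (adjusted p = 0.033) comes from a fall that came on day 1 in Mbd3f/- cells and after day 3 in Gatad2a-/- cells. Igf2r, another imprinted gene, had -1.39 (adjusted p = 0.0217), and these 2 were the ones called of 21 imprinted genes tested, against 0.937% of all genes. The list as a whole leaned the other way, with 13 of the 21 contrasts positive. Its median contrast was 0.563, against -0.04 for all genes. Dkk3, a secreted protein, had -2.38 ± 0.38 (adjusted p = 0.03).

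Genes of 2-cell embryos passed no test. Of 6 that passed the filter (14 listed) 0 were called by limma. Over days 6 to 8, 0 had an unadjusted p under 0.05, against 16.9% of all genes. For days 1 to 3 minus days 6 to 8, 4 had one, all with the more positive difference late, against 21.7% of all genes. The list's median in that contrast was -1.78. Zscan4c, which marks a rare 2-cell-like state of embryonic stem cells, was at 0.049, 4.88 and 9.46 FPKM on Mbd3f/- days 6 to 8 and at 0, 0.116 and 0.0555 FPKM on Gatad2a-/- days 6 to 8. Its difference over days 6 to 8 was 2.00 with an adjusted p of 0.381, and the Zscan4 copies share reads. Bid, a death-promoting BCL2 relative, and Bcat1, which breaks down branched-chain amino acids, were called upward over days 6 to 8 with 2.05 ± 0.34 (adjusted p = 0.0493) and 2.02. Bid was at 24.3 to 37.1 FPKM on Mbd3f/- days 6 to 8 and at 10.3 to 15.5 FPKM on Gatad2a-/- days 6 to 8, from 5.06 FPKM in Mbd3f/- MEF and 9.40 FPKM in Gatad2a-/- MEF.

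Other lists gave fewer calls. Of 26 genes of one-carbon and cholesterol metabolism, 1 rose more in Mbd3f/- cells over days 1 to 3 and 0 less, where 0.458% of all genes rose more, namely Idi1 of isoprenoid synthesis with 1.99 ± 0.35 (adjusted p = 0.0495), and the list's median change was 1.57 in Mbd3f/- cells and 0.122 in Gatad2a-/- cells. Over the 8 days, 18% of all genes had an unadjusted p under 0.05. For this span limma called 0 of 31 DNA replication genes, with 6 at an unadjusted p under 0.05 and a median difference of 0.409. It called 0 of 28 mitosis genes, with 8 at an unadjusted p under 0.05 and a median of -0.598, which was 0.0809 with iPSC in place of MEF. It called 0 of 20 interferon-response genes that passed the filter, with 5 at an unadjusted p under 0.05 and a median of -1.02, which was 0.407 with iPSC in place of MEF. Isg15, an interferon-induced ubiquitin-like protein, was at 47.7 FPKM in Mbd3f/- MEF and 161, 16.4 and 1.66 FPKM on Mbd3f/- days 1 to 3, against 5.88 FPKM in Gatad2a-/- MEF and 9.85, 1.67 and 1.15 FPKM on Gatad2a-/- days 1 to 3. Its difference over days 1 to 3 was -0.52 (adjusted p = 0.851), with a level gap between the systems that closed by day 3.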

How the data were processed

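Poly(A) RNA was sequenced from unstranded TruSeq libraries, so antisense and overlapping genes cannot be told apart. The authors deposited FPKM per gene, with 1 table per system; CASAVA 1.8.2, TopHat2 2.0.10, Cufflinks 2.2.1 and mm10 are named in the submitters' processing notes, with no further settings. FPKM give no depth, and precision was taken from the spread between days. The 38987 genes of both tables were used, after 22 repeated identifiers were summed and 27 symbols turned into dates were restored by Ensembl ID; 37 mitochondrial genes were listed at 0 throughout. Positions are those of GENCODE on GRCm38.

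Genes at 1 FPKM or more in at least 2 of the 18 libraries (19860, of which 22.5% were listed at 0 in some library) were fitted on log2(FPKM + 1) in limma 3.58.1 (R 4.3.3) with stage as a block that pairs the systems by day, system, and system by phase (MEF, days 1 to 3, days 4 and 5, days 6 to 8), 5 residual degrees of freedom, trend and robust moderation, and Benjamini-Hochberg adjustment at 0.05. The single MEF pair is assumed to vary like the daily pairs. Differences are on the log2(FPKM + 1) scale, which understates those of low genes. On simulated data the fit recovered, for days 1 to 8, 60% of genes changed by 2 and 83% of those changed by 4 (log2), with 6 false calls. For genes changed by 2 it recovered 47% over days 1 to 3 and 48% over days 6 to 8. The simulated noise was independent between libraries and had the same spread in MEF, so the simulation cannot check the assumption on the MEF pair.

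Named genes are the 10 most positive and 10 most negative contrasts among genes past the threshold with 5 FPKM in a library and 1 sign on every day of the span (predicted and short RNA genes left out), the targeted and induced genes, up to 4 members per list by size of contrast, and the 10 largest rises and falls of like size. Members and lists were chosen with earlier results of these data known. Other examples were chosen after their values were seen. Alternatives tried were pseudocount, filter, normalization, moderation, pairing, slope, MEF error, iPSC as the start, and each day left out. Some genes that the naming rule chose are not reported here.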

Additional observations from a re-analysis of the deposited data

Results flagged for a closer look

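The effect of the course differed between the systems by the test of the difference itself for 170 genes over days 1 to 8, 186 over days 1 to 3 and 131 over days 6 to 8, and for 406 genes between early and late days.

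Some named genes also moved in opposite directions from MEF in the 2 systems on every day of the span. Upward in Mbd3f/- cells and downward in Gatad2a-/- cells over days 1 to 8 were, among others, Krt15 (difference 3.90) and Tulp4 (3.37). Over days 1 to 3 these included Krt13 (7.34), Krt6a (4.66), Krt15 (4.51), Sprr3 (3.77) and Tulp4 (3.39), and over days 6 to 8 Krt15 (3.72), Tulp4 (2.99), Cdsn (2.77) and Dpp7 (2.05). Downward in Mbd3f/- cells and upward in Gatad2a-/- cells was Saa3, with -5.32 over days 1 to 8 and -7.96 over days 6 to 8. Over days 1 to 3 the same held for Camp (-5.62), Arhgef40 (-4.21), Sox3 (-3.80) and H2-T23 (-3.41). Krt15, Krt6a, Sprr3, Camp and Sox3 were near 0 FPKM on 1 side of the comparison, where a direction rests on small values.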

How the results depend on the processing

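Counts of calls depended on the processing. Genes called over days 1 to 8 (170), 1 to 3 (186) and 6 to 8 (131) numbered 42, 100 and 65 with a pseudocount of 0.1, 1188, 1047 and 1067 with no filter, and 9, 73 and 41 at 5 FPKM. Quantile normalization gave 369 over days 1 to 8 and 351 over days 6 to 8. With the MEF error left out, 11573, 7969 and 6961 were called. Protein-coding genes alone, an alternative chosen after seeing the data, gave 608, 1045 and 484, and scaling to the protein-coding total, also chosen then, gave 273 and 251 for days 1 to 8 and 6 to 8. Plain moderation gave 26 over days 1 to 3. With iPSC in place of MEF, 91 were called over days 1 to 8 and 64 over days 6 to 8, but these were mostly other genes. Of the 170 genes, 133 were present there, 75 kept their sign and 6 were still called. Of the 131 genes of days 6 to 8, 110 were present, 81 kept their sign and 9 were still called. The calls against MEF thus depended on the choice of the MEF pair as reference. The 406 genes of early against late days became 143 with no filter, 268 at 5 FPKM, 621 after quantile normalization, 155 by slope and 639 for protein-coding genes.

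Median centring, which moved the all-gene median to 0.251, 0.287, 0.244 and 0.107, turned the split upward against downward from 46 and 124 to 91 and 67 (158 genes) over days 1 to 8, from 91 and 95 to 268 and 64 (332) over days 1 to 3, from 26 and 105 to 33 and 78 (111) over days 6 to 8, and from 220 and 186 to 293 and 132 (425) for early against late. Days pair the systems by design. Without the replicate block the counts were 244, 320, 256 and 387.

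Leaving out 1 day gave 32 to 398 genes over days 1 to 8, 12 to 849 over days 1 to 3, 47 to 267 over days 6 to 8 and 47 to 506 for early against late. Omission of any 1 day moved the days 1 to 3 count by over 1.5 times, days 1, 2, 7 and 8 did so for days 6 to 8 (267, 63, 47 and 87), and days 1, 2, 3, 7 and 8 for early against late (205, 47, 123, 48 and 121). The lag of falling genes (0.201 days) was 0.0611 at 25% of the fall, 0.327 at 75%, and 0.129 to 0.496 with a day left out. The lag of rising genes (-0.133) was -0.0321 after quantile normalization, -0.0747 for changes of at least 1, -0.0295 with iPSC as the end, -0.0563 at 25%, and -0.198 to -0.0419 with a day left out. The mean offset of nearest days was -1.12 on levels. Shared genes of like size (137) numbered 56 with a pseudocount of 0.1, 693 for changes of at least 1, and 73 to 174 with a day left out.

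Of 1482 values of named genes under alternatives, 1008 kept their call, 457 lost it and 17 reversed. All 17 reversals came with iPSC in place of MEF: Tulp4 -1.32, Cdsn -0.256, Alpl -0.187, Saa3 5.14, Clec4n 0.285, Wfdc17 0.277 and Arg1 0.674 over days 1 to 8; Tulp4 -1.29, Rtn2 0.0958 and H2-T23 1.23 over days 1 to 3; and Sprr3 -0.125, Tulp4 -1.70, Bid -0.567, Bcat1 -0.0891, Saa3 2.5, Wfdc17 0.0335 and Ccl6 0.0471 over days 6 to 8. The causes were not tested.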
